A study of Mus musculus with 2 samples.

Results

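Heat shock and chaperone genes were followed in progenitors of the lymphoid lineage that carry the integrin α4β7 (αLPs). The 10 genes, out of 27998 in the count tables, were taken by symbol. They are Hspa1a, Hspa1b, Dnajb1, Hsph1, Hsp90aa1, Hsp90ab1, Hspa8, Hspd1, Hspe1 and Hspa5. All 10 were found once in both tables and had UMIs in both libraries (a UMI is a tag that lets copies of 1 captured RNA be counted once). The study made 1 droplet single-cell library from fetal liver and 1 from adult bone marrow of untreated wild-type B6 mice. The fetal livers were taken at E14.5 by the series' design text. The adult mice were 6 to 8 weeks old by the labels, and the fetal sample carries that age label too. In both tissues live cells were sorted as negative for lineage markers, positive for CD45, CD127 and α4β7, and negative for Flt3 and CD25. The labels do not say how many animals were pooled in a library, and both libraries carry 1 batch label.

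Chaperones bind unfolded or partly folded proteins and help them reach or regain their shape. HSP70 proteins work in cycles of ATP hydrolysis that J-domain proteins start and nucleotide exchange factors end, HSP90 proteins act later on signalling proteins and receptors, and the HSP60 and HSP10 pair forms a folding chamber in mitochondria. Some chaperone genes are transcribed at all times, and others are switched on when heat shock factor 1, freed by damaged protein, binds heat shock elements in their promoters. The inducible cytosolic genes here are Hspa1a and Hspa1b (both HSP70), Dnajb1 (a J-domain partner of HSP70), Hsph1 (an HSP110 exchange factor) and Hsp90aa1 (the inducible HSP90). The constitutive cytosolic genes are Hspa8 (the cognate HSP70) and Hsp90ab1 (the constitutive HSP90). Hspd1 (HSP60) and Hspe1 (HSP10) act in mitochondria, and Hspa5 (BiP) is the HSP70 of the endoplasmic reticulum.

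Promoter sequence was set beside these groups. RefSeq promoter windows on build GRCm38.p6, the 250 bases before each start site, matched 7 of the 10 genes, and Hspa8, Hsp90aa1 and Hsp90ab1 are named only. The heat shock element was searched as a pair of units, GAANNTTC or TTCNNGAA, and as a triplet, GAANNTTCNNGAA or TTCNNGAANNTTC. Each form was searched with its other strand, and a triplet holds overlapping pairs. The pair stood in 12.8% of 32851 windows of all genes and the triplet in 0.466%. An element of the unfolded protein response, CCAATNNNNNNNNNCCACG or its other strand, stood in 0.113% of them. The lines below give 30 bases around the matches, each 5′ to 3′ on the gene's strand, with the matched bases in capitals. They are shown because the levels of the inducible HSP70 pair, of the mitochondrial pair and of Hspa5 ran differently over the libraries and cycling states described further on.
Hspa1a, chr17:34972242-34972271, minus strand: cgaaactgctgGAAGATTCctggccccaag
Hspa1b, chr17:34959324-34959353, minus strand: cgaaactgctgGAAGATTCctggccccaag
Hsph1, chr5:149636351-149636380, minus strand: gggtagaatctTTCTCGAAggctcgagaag
Hspe1, chr1:55088053-55088082, plus strand: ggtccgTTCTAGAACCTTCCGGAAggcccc
Hspa5, chr2:34772020-34772049, plus strand: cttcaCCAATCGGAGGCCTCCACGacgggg

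The pair of units lay 104 to 97 bases before the start of Hspa1a, and at the same distance from the start of Hspa1b. In Hspe1 the capitals span 18 bases that hold 2 overlapping triplets and 3 pairs. Hspd1 lies head to head with Hspe1 on the other strand of chromosome 1, and the same 18 bases stand in the window of a second Hspd1 start site. They lie inside the annotated Hspd1 gene, and the window directly before its annotated start held no heat shock form. Hspa5 held the unfolded protein response element 65 to 47 bases before its start and no heat shock pair. No heat shock form was found in either Dnajb1 window, which says only that these letters are not in those windows. The window of the second Dnajb1 start site lies inside the annotated gene.

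Hspa1a (ENSMUSG00000091971, chr17:34969190-34972156) and Hspa1b (ENSMUSG00000090877, chr17:34956436-34959238) are near copies on the minus strand, protein coding in the mm10 annotation, and their windows were identical at 247 of 250 positions (98.8%). Counted from the 5′ end of the window, with the base of Hspa1a first, the differences were C44T, T47C and T249G. No label or header states how the authors counted reads that match both copies. The split of UMIs between Hspa1a and Hspa1b is therefore uncertain, and their sum is given as well. If such reads were left out, the sum and its ratio to other genes would be too low as well. The whole Hspa1a window, chr17:34972157-34972406 on the minus strand, is printed to show where the heat shock pair, in capitals, lies.
Hspa1a promoter: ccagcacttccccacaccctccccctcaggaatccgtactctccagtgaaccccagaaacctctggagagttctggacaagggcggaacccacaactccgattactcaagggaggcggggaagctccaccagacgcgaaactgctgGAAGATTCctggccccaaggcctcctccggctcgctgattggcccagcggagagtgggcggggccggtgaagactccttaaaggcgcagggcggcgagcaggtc

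After cells with under 500 genes or over 10% mitochondrially encoded UMIs were left out, the fetal liver library kept 8583 cells and 91285900 UMIs, and the bone marrow library 7258 cells and 29941097 UMIs. The libraries shared 19 cell barcodes. Fetal liver cells were deeper, with a median of 9294 UMIs per cell against 3447.5 in bone marrow cells. Of the sorted markers, the genes for CD45 (Ptprc), CD127 (Il7r) and α4β7 (Itga4, Itgb7) were at 47.9 to 178 CPM in fetal liver (UMIs of a gene per 1000000 UMIs of the library) and 61.8 to 417 CPM in bone marrow. Flt3 and Il2ra, which the sort selects against, were at 1.45 and 1.08 CPM in fetal liver and 1.20 and 7.78 CPM in bone marrow. Both libraries also held RNA of genes on marker lists for other lineages. Of the myeloid list, 11 of 11 markers were detected in each, at a sum of 1020 CPM in fetal liver, against 781 CPM in bone marrow. Erythroid markers numbered 10 of 10 at 265 CPM in fetal liver and 9 of 10, with Alas2 at 0, at 64.5 CPM in bone marrow. B lineage markers, 9 of 9 in each, summed to 153 CPM in fetal liver, against 34.1 CPM in bone marrow. T lineage markers, 7 of 10 of which are in the count tables, summed to 330 CPM in fetal liver, against 30.3 CPM in bone marrow. Hepatocyte markers summed to 9.61 against 6.81 CPM. Other lists were level or higher in bone marrow. Mast or basophil markers had 203 CPM in fetal liver, against 209 CPM, and plasmacytoid dendritic markers 231 against 348 CPM. Endothelial or stromal markers had 26.1 CPM in fetal liver, against 44.5 CPM. Some listed genes are not limited to these lineages, and Cd4 of the T lineage list is also on a list of innate lymphoid markers. In cluster 14 of fetal liver, described below, 3 T lineage markers were raised beside 6 markers of innate lymphoid progenitors. The sums therefore do not show how many cells of other lineages were present. With 1 library per tissue no test between tissues exists, and the intervals given are exact 95% intervals that cover counting error only, not the spread between mice. Intervals of levels and ratios also leave out the spread between cells, which is wide for Hspa1a and Hspa1b, as described below.

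Fetal liver αLPs held more constitutive, mitochondrial and endoplasmic reticulum chaperone RNA than bone marrow αLPs, and less of the HSP70 genes that heat shock induces. UMIs of a 3′ tag kit count RNA ends and do not grow with transcript length, so levels of different genes were set side by side unscaled. Together the 10 genes took 7885 CPM in fetal liver, against 5130 CPM in bone marrow. In both libraries Hsp90ab1 was the most abundant, followed by Hspa8 and Hspe1, and Dnajb1, Hsph1, Hspa1b and Hspa1a closed the order. Between them stood Hspd1, Hspa5 and Hsp90aa1 in fetal liver, at 551 to 564 CPM, where the intervals of neighbours overlapped. In bone marrow these 3 genes were further apart, with Hspa5 at 352 CPM, Hsp90aa1 at 322 CPM and Hspd1 at 247 CPM.

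Among the inducible genes, Hspa1a had 6.33 CPM in fetal liver (578 UMIs) and 15.8 CPM in bone marrow (472 UMIs). Hspa1b had 7.88 CPM in fetal liver (719 UMIs) and 19.3 CPM in bone marrow (577 UMIs). Both HSP70 genes were therefore lower in fetal liver. Taken as fetal liver over bone marrow, the log2 ratio was -1.32 for Hspa1a (interval -1.49 to -1.14) and -1.29 for Hspa1b (-1.45 to -1.13). For their sum, 14.2 CPM in fetal liver, against 35.04 CPM in bone marrow, it was -1.30 (-1.42 to -1.18). These ratios rest in part on few cells, a spread that the intervals do not cover. Without the 1% of cells richest in UMIs of the pair in each library, a check added once the values were known, the ratio was -1.22 for Hspa1a and -0.79 for Hspa1b, so Hspa1b was then within 2-fold. Dnajb1, which delivers clients to HSP70, had 69.6 CPM in fetal liver, against 131 CPM in bone marrow, for a log2 ratio of -0.91 (-0.97 to -0.85).

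The other inducible genes went the other way. Hsph1 had 29.4 CPM in fetal liver, against 22.9 CPM in bone marrow, for a log2 ratio of 0.36 (0.24 to 0.48). Hsp90aa1 had 551 CPM in fetal liver, against 322 CPM in bone marrow, for a log2 ratio of 0.78 (0.74 to 0.81). Hsp90aa1 made up most of the RNA of the inducible group, which summed to 664 CPM in fetal liver, against 511 CPM in bone marrow (log2 ratio 0.38). Without Hsp90aa1 the inducible sum was 113 CPM in fetal liver, against 189 CPM in bone marrow, and its log2 ratio was -0.74 (-0.78 to -0.69). The sign of the inducible sum over all cells thus depended on whether the inducible HSP90 was counted. It also depended on the cycling state of the cells, as described below: with Hsp90aa1 included, the log2 ratio of the sum was -0.14 (-0.21 to -0.07) in low, 0.08 in middle and 0.09 in high cells.

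The constitutive genes were higher in fetal liver. Hspa8 had 1563 CPM in fetal liver, against 828 CPM in bone marrow (log2 ratio 0.92, 0.90 to 0.94). Hsp90ab1 had 3499 CPM in fetal liver, against 2470 CPM in bone marrow (log2 ratio 0.50, 0.49 to 0.51). The difference between the log2 ratios of the inducible and the constitutive sum was -0.24, and it was -0.55 in cells of low and -0.36 in cells of high cycling state, as defined below. Within families, the HSP70 pair Hspa1a plus Hspa1b amounted to 0.0091 UMIs per Hspa8 UMI in fetal liver and 0.042 in bone marrow. Hsp90aa1 amounted to 0.158 UMIs per Hsp90ab1 UMI in fetal liver and 0.130 in bone marrow. Over all cells the inducible share was thus lower in fetal liver for HSP70 and higher for HSP90. Within the cycling states described further on, the HSP90 order turned.

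The mitochondrial partners, whose genes share a promoter region, differed in the size of the gap. Hspd1 had 564 CPM in fetal liver, against 247 CPM in bone marrow, for a log2 ratio of 1.19 (1.16 to 1.23). Hspe1 had 1039 CPM in fetal liver, against 722 CPM in bone marrow, for a log2 ratio of 0.52 (0.50 to 0.55). There were 0.543 Hspd1 UMIs per Hspe1 UMI in fetal liver and 0.342 in bone marrow. The annotated 5′ ends of these genes overlap on opposite strands (Hspd1 at chr1:55077835-55088243, Hspe1 at chr1:55088132-55091307). No label or header says whether the authors' counting used strand, so reads in the overlap could be credited to either. The kit counts 3′ ends, which in both genes lie away from the overlap, and the share of reads in it was not tested. Hspa5, the HSP70 of the endoplasmic reticulum, had 555 CPM in fetal liver, against 352 CPM in bone marrow, for a log2 ratio of 0.66 (0.63 to 0.69).

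**Figure D1:**
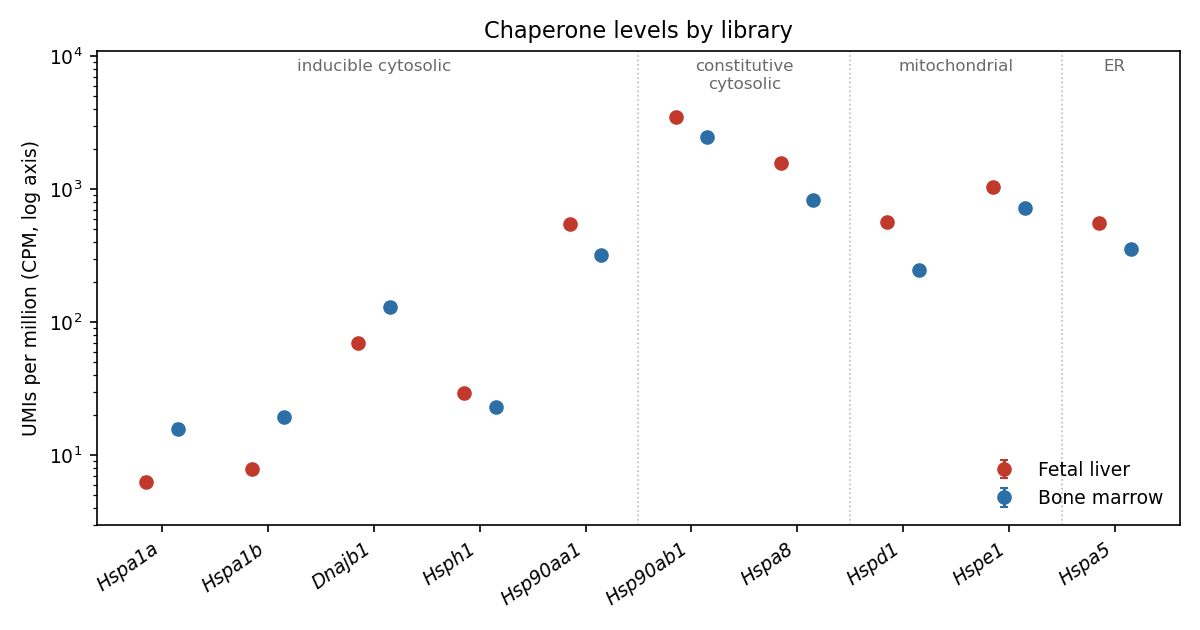
Level of each chaperone gene (CPM, log axis) in the fetal liver library and the bone marrow library, grouped by role; bars, mostly hidden by the points, are exact 95% counting intervals. Hspa1a, Hspa1b and Dnajb1 sit lower in fetal liver than in bone marrow, and the other 7 genes sit higher.

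Past 2-fold, 1 of the 10 genes was higher in fetal liver (Hspd1), against 7.25% of the 6938 genes with 10 CPM or more in the higher library. The number 2-fold lower was 2 (Hspa1a and Hspa1b), against 10.9% of those genes. All 10 chaperones passed the 10 CPM limit, Hspa1a and Hspa1b only through bone marrow, where they are high, so their count is not support for a change. The median log2 ratio was 0.51 over the 10 genes and 0.01 over all genes. Scaling by median-ratio or TMM factors instead of total UMIs shifted every log2 ratio up by 0.16 or 0.14 and made Hspa8 a second gene 2-fold higher, and no member changed direction under it.

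Cells rich in cell cycle RNA were far more common in the fetal liver library. Each cell with 1500 or more UMIs was thinned to 1500, and its UMIs on lists of 42 S phase and 52 G2 and M phase genes were counted. A cell with 0 to 2 such UMIs was called low, with 3 to 7 middle, and with 8 or more high in cycling state. No chaperone gene is on either list. These states are ranges of a score and not cell types: 992 fetal liver and 2676 bone marrow cells lay near the lower limit, and 763 and 262 near the upper. In fetal liver 11.1% of 8512 cells were low, 28.6% middle and 60.3% high (exact binomial interval of the high share 59.2% to 61.3%). In bone marrow 46.0% of 7077 cells were low, 40.8% middle and 13.3% high (12.5% to 14.1%). Levels within a state use all UMIs of its cells.

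The genes for HSP60, HSP10, both HSP90 forms and the cognate HSP70 were higher in cycling cells of both libraries, whereas Hspa5, Dnajb1 and the inducible HSP70 genes were not. Hspa8 had 901, 1163 and 1752 CPM in low, middle and high cells of fetal liver. In bone marrow Hspa8 had 693, 779 and 1123 CPM in the same order. The log2 ratio of high over low cells was 0.96 in fetal liver and 0.70 in bone marrow. Hsp90ab1 differed less over the states, with 3065, 3364 and 3584 CPM in low, middle and high cells of fetal liver. In bone marrow Hsp90ab1 had 2302 CPM in low, 2456 in middle and 2792 in high cells, and its log2 ratios of high over low cells were 0.23 in fetal liver and 0.28 in bone marrow.

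The inducible HSP90 followed the cycle more closely than its constitutive partner. Hsp90aa1 had 290, 388 and 627 CPM in low, middle and high cells of fetal liver, a log2 ratio of high over low of 1.11 (1.05 to 1.18). In bone marrow it had 235, 286 and 517 CPM, a log2 ratio of 1.14 (1.07 to 1.21). There were 0.175 Hsp90aa1 UMIs per Hsp90ab1 UMI in high cells of fetal liver and 0.0946 in low cells. In bone marrow the same ratio was 0.185 in high cells and 0.102 in low cells. In middle cells it was 0.115 in fetal liver and 0.117 in bone marrow. The ratio of the HSP90 forms therefore differed more between states than between libraries. In each state it was lower in fetal liver, the reverse of the order over all cells, and the intervals of the libraries overlapped in low and middle cells but not in high cells.

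The mitochondrial pair showed the same order of states. Hspd1 had 278, 423 and 636 CPM in low, middle and high cells of fetal liver, a log2 ratio of high over low of 1.20. In bone marrow Hspd1 had 185, 229 and 378 CPM, a log2 ratio of 1.03. Hspe1 had 604, 830 and 1147 CPM in fetal liver (log2 ratio 0.93), and 592, 698 and 979 CPM in bone marrow (0.73). Hsph1, the HSP110 exchange factor, was at 18.0, 21.5 and 32.9 CPM in fetal liver (log2 ratio 0.87), and at 20.8, 20.9 and 30.0 CPM in bone marrow (0.53). Hsph1 was the inducible gene besides Hsp90aa1 that was higher in high than in low cells of both libraries.

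Hspa5 of fetal liver and bone marrow and Dnajb1 of fetal liver differed little over the states, and Dnajb1 was lower in high than in low cells of bone marrow. Hspa5 had 570, 558 and 553 CPM in low, middle and high cells of fetal liver, and 357, 363 and 327 CPM in bone marrow. Dnajb1 had 68.98, 69.6 and 69.6 CPM in fetal liver, and 141, 130 and 117 CPM in bone marrow. The log2 ratio of high over low cells was -0.04 for Hspa5 and 0.01 for Dnajb1 in fetal liver. The sign changed for Hspa5 under 3 of 9 alternatives, to 0.21 with a median-ratio factor, and for Dnajb1 under 5 of 9, with a range of -0.19 to 0.27. In bone marrow it was -0.13 for Hspa5, where the sign changed under 2 of 9 alternatives, and -0.27 (-0.39 to -0.15) for Dnajb1, where it did not. The size of that gap was close to the 0.28 of Hsp90ab1 in bone marrow, with the opposite sign.

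Hspa1a plus Hspa1b were lowest in middle cells of both libraries. Their sum was 20.2, 11.2 and 14.54 CPM in low, middle and high cells of fetal liver. In bone marrow the sum was 41.7, 28.3 and 35.5 CPM. The log2 ratio of high over low cells was -0.47 (-0.74 to -0.20) in fetal liver and -0.23 (-0.46 to -0.01) in bone marrow. Since few cells hold much of the pair's RNA, these intervals are too narrow for the spread between cells. In fetal liver it was -0.68 for Hspa1a and -0.29 for Hspa1b, and within clusters weighing the same -1.37 and -1.70. In bone marrow it was -0.11 for Hspa1a and -0.35 for Hspa1b, and within clusters it turned to 0.24 and 0.47. Weighing by cluster thus moved the ratios of the 2 libraries in opposite directions, but on few UMIs. The low cells of fetal liver clusters 5, 13 and 14 held 0, 0 and 1 UMIs of Hspa1a, and 0, 3 and 4 of Hspa1b. Single bone marrow clusters ran from -2.06 to 3.68 for Hspa1a and from -1.42 to 3.30 for Hspa1b. They shared no direction, so no shift between the libraries is read from these averages. Low cells of fetal liver rest on 129 UMIs of the pair. Inside the high class of fetal liver, cells that lean to G2 and M phase had 16.5 CPM and cells that lean to S phase 9.44 CPM. In bone marrow the G2 and M leaning cells had 31.8 CPM and the S leaning cells 41.7 CPM, the opposite order, with a log2 ratio of -0.39 (-0.78 to 0.01).

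**Figure D2:**
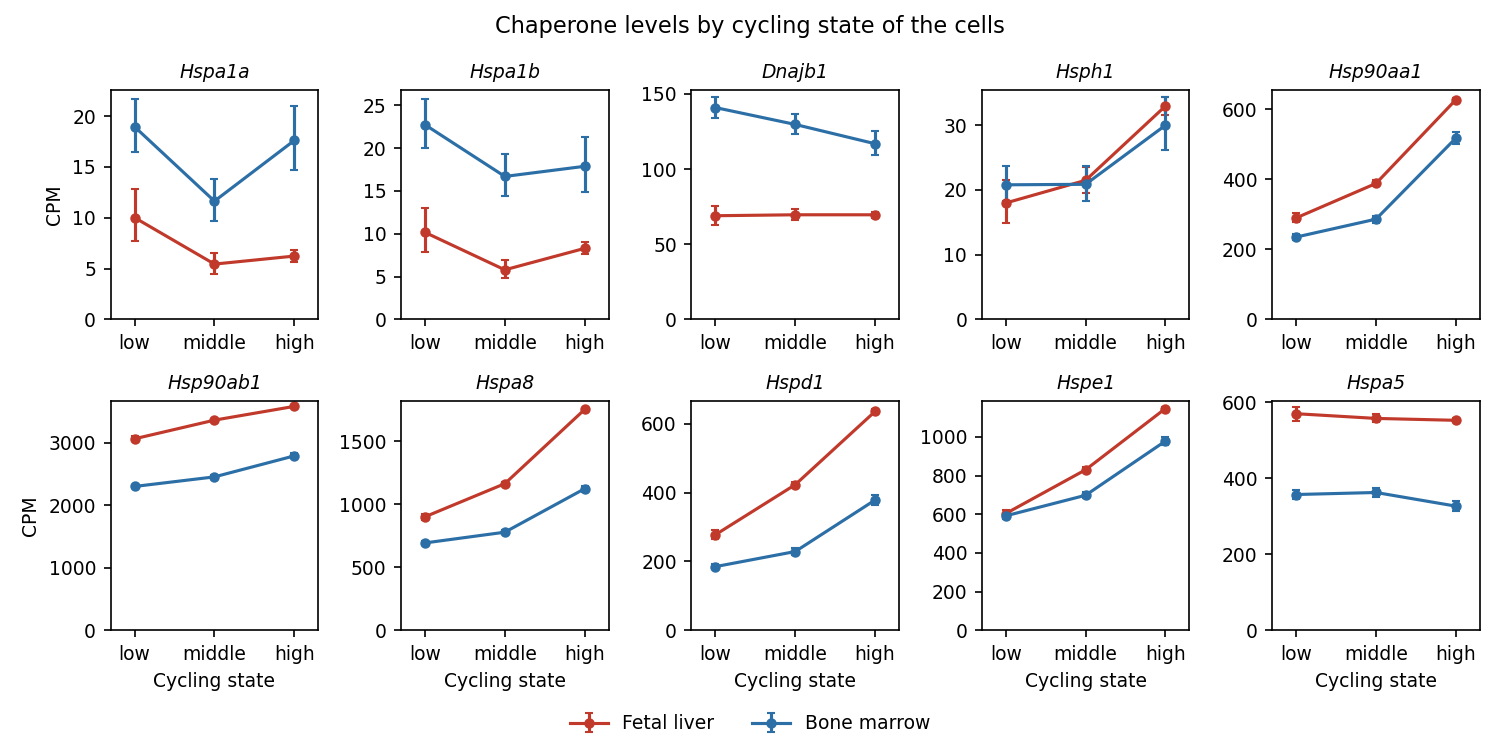
Level (CPM, linear axis from 0) of each chaperone gene in cells of low, middle and high cycling state in fetal liver and bone marrow; bars are exact 95% counting intervals. Hspa8, Hsp90aa1, Hsp90ab1, Hspd1 and Hspe1 climb from low to high in both libraries, Hspa5 stays between 553 and 570 CPM in fetal liver and between 327 and 363 CPM in bone marrow, and Hspa1a and Hspa1b are lowest in middle cells.

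Past 2-fold, 2 of the 10 genes (Hsp90aa1 and Hspd1) were higher in high than in low cells of fetal liver, against 6.93% of 6737 genes, and 0 were lower, against 4.81%. There Hspa1a and Hspa1b passed 10 CPM only through the low cells, where they were higher. In bone marrow these 2 genes were again past 2-fold, against 9.27% of 6967 genes, and 0 were lower, against 6.88%. The median log2 ratio of the 10 genes was 0.55 in fetal liver, where that of all genes was -0.11, and 0.40 in bone marrow, where that of all genes was -0.05. A median-ratio factor shifts the log2 ratios of high over low cells up by 0.25 in fetal liver and 0.08 in bone marrow, under which Hspa8, Hsph1 and Hspe1 also passed 2-fold in fetal liver. Between G2 and M leaning and S leaning cells 0 genes passed 2-fold in either direction. Only 8 of the 10 genes reached 10 CPM there in fetal liver, since Hspa1a and Hspa1b did not. The share of all genes past 2-fold was 1.88% higher and 0.16% lower in fetal liver, and 3.3% higher and 0.772% lower in bone marrow.

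Depth and cell kind moved with cycling state. Median UMIs per cell were 5907, 7407 and 11323.5 in low, middle and high cells of fetal liver, and 3106, 3382 and 7011 in bone marrow. Without the 5% of cells with the most UMIs, 1 gene was past 2-fold in fetal liver and 0 in bone marrow. Within clusters with 50 or more high and 50 or more low cells, 5 in fetal liver and 4 in bone marrow, each weighing the same, 0 genes with 10 CPM or more were past 2-fold. Hspa1a and Hspa1b of fetal liver were then at log2 ratios of -1.37 and -1.70 but below 10 CPM in both states, so they were not counted. Hspa8, Hsp90aa1, Hspd1 and Hspe1 still had log2 ratios above 0 in 5 of 5 and 4 of 4 of these clusters. Their medians over the clusters were 0.71 for Hspa8, 0.85 for Hsp90aa1, 0.95 for Hspd1 and 0.56 for Hspe1 in fetal liver. In bone marrow they were 0.65 for Hspa8, 0.96 for Hsp90aa1, 0.86 for Hspd1 and 0.71 for Hspe1. The part of depth in these ratios was not tested.

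Because the libraries differ in the share of cycling cells, they were also compared within each state. Hspd1, the gene that was 2-fold higher over all cells, had log2 ratios of fetal liver over bone marrow of 0.59, 0.89 and 0.75 in low, middle and high cells, each under 2-fold. Hspa8 had 0.38, 0.58 and 0.64, against 0.92 over all cells. Hsp90aa1 had 0.30, 0.44 and 0.28, against 0.78 over all cells. The gap between libraries was thus smaller within every state than over all cells for these 3 genes. Hspe1 was at 0.03, 0.25 and 0.23, and its interval in low cells (-0.03 to 0.09) included 0. Hsph1 turned to -0.21 (-0.54 to 0.12) in low cells and was at 0.04 and 0.14 in middle and high cells, and all 3 intervals included 0.

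The genes that were lower in fetal liver stayed so within each state. Hspa1a had log2 ratios of -0.92, -1.09 and -1.497 in low, middle and high cells. Hspa1b had -1.16, -1.53 and -1.11. Dnajb1 had -1.03, -0.90 and -0.75. Hspa5, which differed little over the states, kept a gap of 0.67, 0.62 and 0.76, close to its 0.66 over all cells. Hsp90ab1 had 0.41, 0.45 and 0.36, against 0.50 over all cells.

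**Figure D3:**
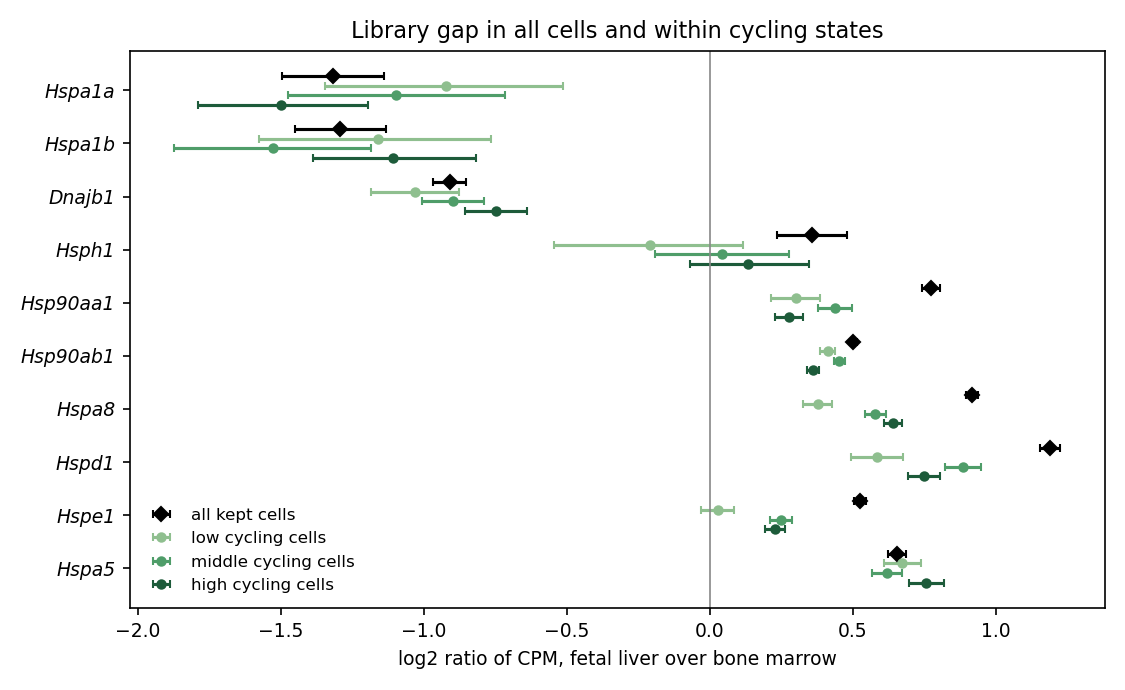
Log2 ratio of CPM, fetal liver over bone marrow, for each chaperone gene in all kept cells (black) and in low, middle and high cycling cells (light to dark green), with exact 95% counting intervals. The ratios of Hspa1a, Hspa1b and Dnajb1 lie below 0 in every class, and those of Hspa8, Hsp90aa1 and Hspd1 lie nearer to 0 within each state than over all cells.

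A set of 16 immediate early genes, which are transcribed within minutes of a stimulus, differed beside the HSP70 genes between the libraries. It summed to 5785 CPM in fetal liver, against 16854 CPM in bone marrow, and 14 of its 16 genes were 2-fold lower in fetal liver (10.9% of all genes), at a median log2 ratio of -1.76. Nr4a1 (-2.57), Zfp36 (-2.40), Fosb (-2.40) and Fos (-2.18) had the largest gaps of the set. Over cycling states it had 7789, 6387 and 5400 CPM in low, middle and high cells of fetal liver, and 19569, 17614 and 10812 CPM in bone marrow. Across clusters Pearson's r of Hspa1a plus Hspa1b with the log2 of that sum was -0.35 over 16 fetal liver clusters and -0.34 over 13 bone marrow clusters, a description over clusters that share a library. The part of this response in the library gap was not tested.

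The inducible HSP70 RNA sat in few cells. In fetal liver 71 of 8583 cells (0.827%) held 50% of the 1297 UMIs of Hspa1a plus Hspa1b, and in bone marrow 45 of 7258 cells (0.620%) held 50% of the 1049 UMIs. For Hspa8 that took 18.9% of cells in fetal liver and 15.8% in bone marrow. For Hsp90ab1 it took 22.1% in fetal liver and 19.8% in bone marrow. Dnajb1 and Hsph1 stood between, with 13.1% and 7.503% of cells in fetal liver and 7.96% and 3.36% in bone marrow. Such shares are smaller for rarer genes, but in bone marrow the pair was at 35.04 CPM and Hsph1 at 22.9 CPM, and the pair still sat in fewer cells. The cell with the most UMIs of the pair had 88 in fetal liver, against 27 in bone marrow, and the top 10 cells held 26.9% of them in fetal liver and 19.6% in bone marrow.

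At the same depth of 1500 UMIs per cell, 1.27% of fetal liver cells (exact binomial interval 1.04% to 1.53%) and 2.39% of bone marrow cells (2.04% to 2.77%) had a UMI of the pair. Unthinned, the order was the other way, at 6.51% of cells in fetal liver and 4.82% in bone marrow, where fetal liver cells had 2.70 times the median UMIs. No cell type in these libraries is known to lack these genes, so no background share could be set beside them. Over thinned cells the Pearson's r of Hspa1a and Hspa1b was 0.80 over 8512 fetal liver cells and 0.52 over 7077 bone marrow cells. Few cells can set this r, since only 108 and 169 of them had a UMI of the pair. Unthinned, 87 of 274 fetal liver cells with Hspa1a (31.8%) also had Hspa1b, against 4.33% of all cells. In bone marrow 81 of 204 did (39.7%), against 3.13% of all cells. Most cells with Hspa1a thus had no UMI of Hspa1b. Over all 45 pairs of the 10 genes the median r was 0.04 in fetal liver and 0.07 in bone marrow, which is no finding in such sparse counts. The part of reads shared between the near copies in this r was not tested.

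**Figure D4:**
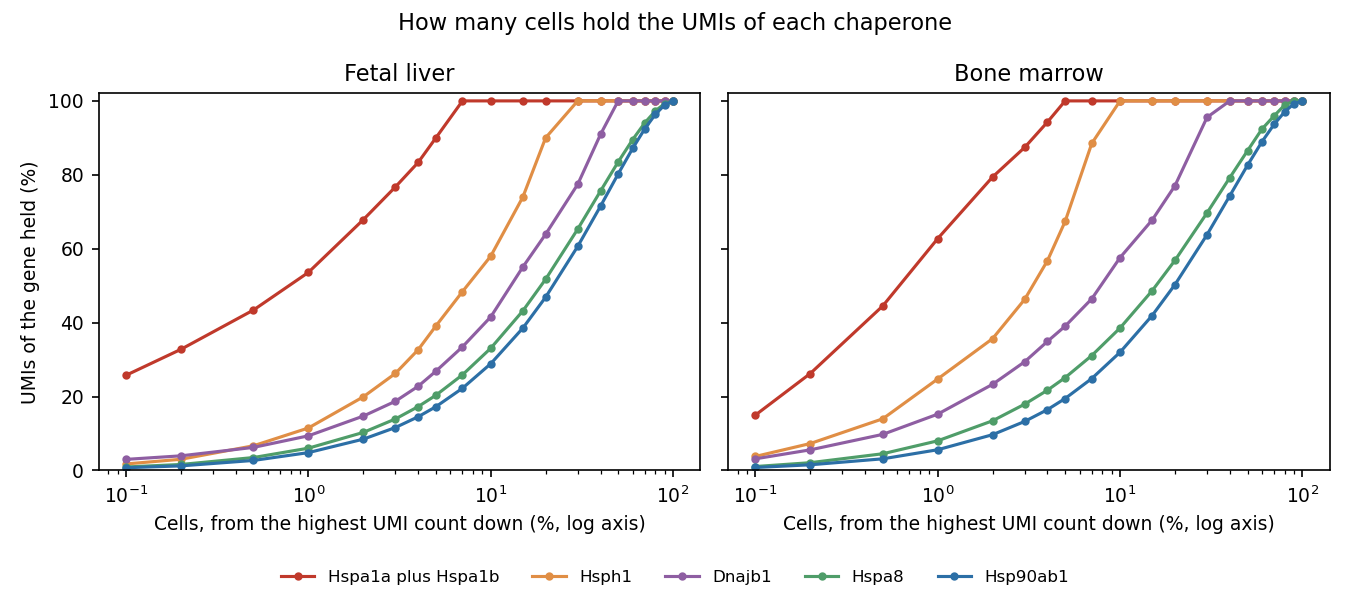
Share of a gene's UMIs (%) held by the given share of cells (%, log axis), cells ordered from the highest count of that gene down, in fetal liver (left) and bone marrow (right). The top 1% of cells held 53.6% of the Hspa1a plus Hspa1b UMIs in fetal liver, against 62.7% in bone marrow, while they held 6.02% and 8.01% of the Hspa8 UMIs.

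The cells with 5 or more UMIs of the pair, 36 in fetal liver and 58 in bone marrow, were chosen by those UMIs, and their other levels are a description. Their Dnajb1 was 325 CPM in fetal liver, against 66.8 CPM in cells with 0 UMIs of the pair. In bone marrow it was 933 CPM, against 116 CPM. In fetal liver Hsph1 was 65.7 CPM in these cells, against 28.1 CPM. In bone marrow it was 135 CPM, against 19.7 CPM. Most other members were higher in these cells too. Hsp90aa1 was 1255 CPM in fetal liver, against 522 CPM, and 815 CPM in bone marrow, against 304 CPM. Hspa8 was 2099 CPM in fetal liver, against 1527 CPM, and 1665 CPM in bone marrow, against 792 CPM. Hspd1, Hspe1 and Hsp90ab1 were likewise higher in both libraries, while Hspa5 was 549 CPM in fetal liver, against 559 CPM, and 574 CPM in bone marrow, against 349 CPM. Cells with 1 UMI of the pair were more numerous, and in the 357 of fetal liver Dnajb1 was 67.6 CPM, next to the 66.8 CPM of cells with 0. In the 194 such cells of bone marrow it was 183 CPM, against 116 CPM. Hsp90aa1 and Hspd1 were already higher in the 357 cells of fetal liver, at 713 and 723 CPM, against 522 and 540 CPM. The cells with 5 or more UMIs were deeper than those with 0, with a median of 17682.5 UMIs in fetal liver against 9036.5, and 5002 in bone marrow against 3382. Their immediate early sum was 3760 CPM in fetal liver, against 5904 CPM, and 17648 CPM in bone marrow, against 17076 CPM. Of the cells with 5 or more UMIs, 15 of 36 fell in fetal liver cluster 12, described below, and 58 spread over 13 bone marrow clusters. Cluster 12 as a whole had Hsp90aa1 at 1051 CPM and Hspd1 at 964 CPM, next to 1255 and 931 CPM in the 36 cells. High cycling cells were 75% of the 36, against 58.9% of fetal liver cells with 0. In bone marrow they were 22.4% of the 58, against 12.6%. The parts of cluster and cycling state in these levels were not tested.

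The libraries were clustered separately without the chaperone, cell cycle and immediate early genes, and clusters are described by number and leading genes. In fetal liver the HSP70 pair was highest in cluster 12 of 374 cells, at 44.8 CPM (40.2 to 49.7), which holds 349 of the 1297 UMIs. This cluster is led by globin genes and the myeloid genes Mpo and Prtn3, and 9 of 10 erythroid markers were raised in it. Clusters 15 and 17 followed at 23.2 and 21.7 CPM with overlapping intervals, led by Il1r2 and by the B lineage gene Vpreb3. Cluster 14, led by H19, Cck and Igf2, was lowest at 3.72 CPM. Without the 1055 fetal liver cells of clusters led by B lineage, myeloid, erythroid or mast cell genes, the log2 ratio between the libraries was -1.86 for Hspa1a and -1.69 for Hspa1b. No bone marrow cluster met that rule, which asks for 3 or more markers of 1 such lineage among the 10 leading genes. Cells were thus left out of fetal liver only, among them cluster 12, where the pair was highest. Bone marrow cluster 12, led by Prg2 and with Prtn3 among its leading genes, stayed in and holds 147 of the 1049 UMIs. So did cluster 15 of 43 cells, where 9 erythroid and 5 mast or basophil markers were raised. The wider gap thus does not compare like cells.

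In bone marrow the pair was highest in cluster 5, led by Ifit1, Prss2 and Ccl4, at 71.5 CPM (58.5 to 86.4). Cluster 13, led by S100a3, Phlda1 and Hspa1b, came next at 57.8 CPM (43.0 to 76.0), and these intervals overlapped. Cluster 6, led by Ly6a and Il1rl1, was lowest at 10.2 CPM (6.51 to 15.1), and it had the highest immediate early sum of the 13 clusters, 38079 CPM. Hspa1a plus Hspa1b spanned 12.05-fold over fetal liver clusters and 7.04-fold over bone marrow clusters. Hspa8 spanned 1.95-fold and 2.25-fold, and Hsp90ab1 1.69-fold and 2.46-fold. Dnajb1 spanned 1.61-fold and 2.16-fold, a narrower span than that of Hspa1a plus Hspa1b in both libraries.

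**Figure D5:**
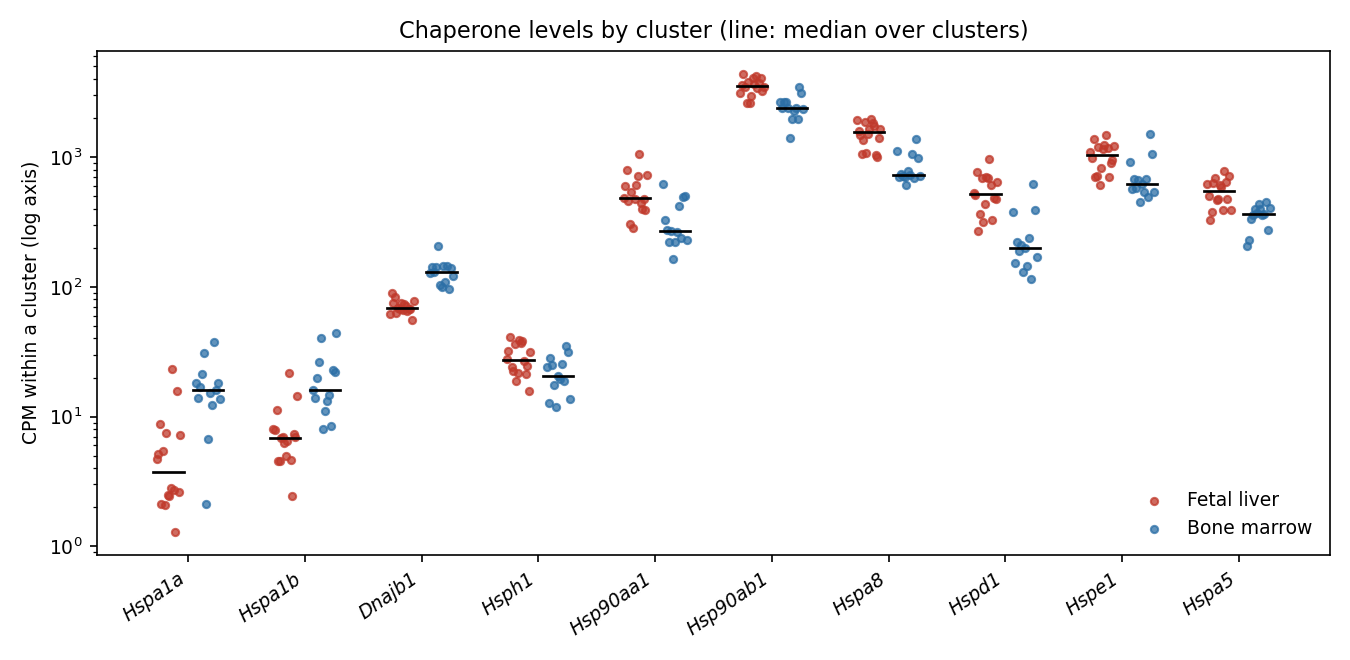
Level (CPM, log axis) of each chaperone gene in each cluster of 50 or more cells, 16 from fetal liver and 13 from bone marrow, and the median over clusters as a line. Hspa1a ranges from 1.29 to 23.1 CPM in fetal liver and from 2.12 to 37.8 CPM in bone marrow, while Hspa8 stays within 1001 to 1950 CPM in fetal liver and 614 to 1381 CPM in bone marrow.

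Over clusters the levels of Hspa8 and Hsp90aa1 had the highest correlation with the share of high cycling cells. That of Hspa5 had the lowest, with a negative sign in both libraries. Pearson's r of a gene's level with the share of high cycling cells was 0.85 for Hspa8 and 0.65 for Hsp90aa1 over the 16 fetal liver clusters. Over the 13 bone marrow clusters it was 0.62 for Hspa8 and 0.73 for Hsp90aa1. For Hspa5 it was -0.09 in fetal liver and -0.58 in bone marrow. The weakest was that of Hspa1a, at 0.01 in fetal liver and -0.02 in bone marrow. The other members lay between and did not all follow their order over the states: Hsp90ab1 had 0.18 and 0.24 in fetal liver and bone marrow, Hspd1 0.59 and 0.41, and Hspe1 0.63 and 0.35. Hspa1b and Dnajb1 had 0.47 and 0.41 in fetal liver, above Hsp90ab1, and -0.14 and -0.25 in bone marrow. Against the immediate early sum, Hspa5 had r of 0.64 in fetal liver and 0.80 in bone marrow, whereas Hsp90aa1 had -0.52 and -0.80. Clusters of 1 library share its depth and preparation, so these are descriptions. The genes most like Hspa1a plus Hspa1b over the 29 clusters, each library centred on its mean, were Litaf (r = 0.72), Glrx5 (0.70), Bcl11a (0.69), Coq4 (0.68) and Hoxa7 (0.67). They were picked as the highest r of all measured genes, so these values are not support for a link. Litaf and Coq4 were under 10 CPM in bone marrow (8.88 and 7.41 CPM), and Hoxa7 in fetal liver (1.65 CPM). The other chaperone members had lower r, from -0.36 for Hspa5 to 0.43 for Hsp90ab1.

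The wider chaperone system was read from lists of related genes. Of 27 other cytosolic chaperones and co-chaperones 23 had 10 CPM or more, and 0 of them were 2-fold higher and 4 were 2-fold lower in fetal liver, where 7.25% of all genes were higher and 10.9% lower. The 4 were Dnajb4 (log2 ratio -1.88), Fkbp5 (-1.38), Dnajb2 (-1.27) and Hsf2 (-1.07). Fkbp5 and Dnajb2 passed the 10 CPM limit only through bone marrow, where they are high. Their place in the count is therefore not support for a change. Dnajb4 and Dnajb2 are J-domain proteins like Dnajb1, Fkbp5 is an HSP90 co-chaperone of steroid receptors, and Hsf2 is a heat shock factor. The median of the list was 0.15. Hsf1, the gene for the main heat shock factor, was below 10 CPM, at 8.00 CPM in fetal liver, against 7.82 CPM in bone marrow. Hspb1 was also below it, at 3.85 CPM in fetal liver (351 UMIs), against 0.668 CPM in bone marrow (20 UMIs). Its log2 ratio was 2.53 (1.88 to 3.25). Bag3 and Hspb8 were below it too, at 1.02 and 0.0219 CPM in fetal liver, against 1.14 and 0 CPM in bone marrow.

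Most of the cytosolic chaperonin lay above 0 in fetal liver over bone marrow. Of the chaperonin and prefoldin list, which folds actin and tubulin, 13 of 14 genes were measured, 11 had a log2 ratio above 0, and 1 was 2-fold higher and 0 lower, against the same 7.25% and 10.9% of all genes. 1 gene of 13 is close to the share of all genes. The named ones were Tcp1 (1.00), Cct5 (0.95), Cct3 (0.89) and Cct8 (0.84), all subunits of the cytosolic chaperonin, and the median was 0.66. Of 9 mitochondrial chaperones and proteases 8 were measured and 0 passed 2-fold in either direction, with a median of 0.54. Clpb was at 0.94, Trap1 (the mitochondrial HSP90) at 0.90, Grpel1 (an exchange factor) at 0.68 and Hspa9 (the mitochondrial HSP70) at 0.65. Clpb passed 10 CPM only through fetal liver, where it was higher.

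Around Hspa5, the list for the endoplasmic reticulum and its unfolded protein response had 20 of 20 genes measured, 5 of them 2-fold higher (7.25% of all genes) and 1 lower (10.9%) in fetal liver, with a median of 0.31. Pdia6, a disulfide isomerase, was at 1.35, and Sdf2l1, a partner of Hspa5, at 1.29. Hsp90b1, the HSP90 of that compartment, was at 1.16. Creld2 and Dnajb11, named after their values were seen, completed the 5 at 1.11 and 1.03. Dnajb9, a J-domain protein that restrains the stress sensor IRE1, was at -1.24. It passed 10 CPM only through bone marrow, where it is high, so its count is not support for a change. Of the list, 13 genes lay above 0, and 1 regulator of the response was 2-fold lower.

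With cycling state the lists had medians above 0 in both libraries, but no more than 1 gene of any of these 4 lists passed 2-fold. Of all genes 6.93% were 2-fold higher and 4.81% lower in high than in low cells of fetal liver, and 9.27% and 6.88% in bone marrow. In high over low cells, 1 of 22 other cytosolic chaperones of fetal liver was 2-fold higher and 0 lower (median 0.33), and 1 of 23 was higher and 0 lower in bone marrow (median 0.37). These were Stip1 (1.03), which links HSP70 to HSP90, in fetal liver and Hspa14 (1.15) in bone marrow, both named after their values were seen. Of the chaperonin list 0 of 13 passed 2-fold in either library, with medians of 0.42 in fetal liver and 0.53 in bone marrow. Of the endoplasmic reticulum list 1 of 19 was 2-fold higher in fetal liver and 1 of 20 in bone marrow, with medians of 0.44 and 0.49. In both it was Sdf2l1, at 1.23 in fetal liver and 1.36 in bone marrow. Of the mitochondrial list 0 of 9 passed 2-fold in fetal liver (median 0.44) and 0 of 7 in bone marrow (0.59). Hsp90b1 had log2 ratios of high over low cells of 0.93 in fetal liver and 0.63 in bone marrow, whereas those of Hspa5 were -0.04 and -0.13. In the same compartment, the HSP90 was thus higher in cycling cells and the HSP70 was not.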

How the data were processed

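Raw UMI counts, 1 value for each gene in each cell, are what the authors deposited. Per the labels' protocols the authors made the counts from a Chromium 3′ library (v2 chemistry) sequenced on a NovaSeq and filtered out barcodes not tied to a cell. The matrix headers name software version 3.0.1 and format 2. The submitters' processing notes name mm10 and Seurat 4.0, and the aligner is not given in the sources used here. Gene and barcode lists, also deposited, hold no measurement.

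Counts were summed over kept cells and divided by the total to give CPM. The filters removed 363 of 8946 fetal liver barcodes and 109 of 7367 bone marrow barcodes. Log2 ratios carry exact conditional 95% intervals, and 3 UMI counts (0.0329 CPM in fetal liver, 0.100 CPM in bone marrow) are the limit for a count of 0. The shares of cycling cells and of cells with a UMI at matched depth carry exact binomial intervals, and cells of 1 library are not replicates. Cycling states left out 71 fetal liver and 181 bone marrow cells under 1500 UMIs. Clusters came from Scanpy 1.11.5 (2000 variable genes, 30 components, 15 neighbours, Leiden resolution 1.0), and levels were read in those with 50 or more cells. No doublet caller was run, and leaving out the 5% of cells with the most UMIs was tried instead. TMM factors came from edgeR 4.0.16. The ratio script was tested on simulated data. The members, lists and tests were chosen with earlier results of these data known. Named genes were all members, the 4 largest absolute log2 ratios of each other list and the 5 genes most like the HSP70 pair. Clusters, Hsf1, Hspb1, Bag3, Hspb8 and the genes leading clusters were named after their values were seen.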

Additional observations from a re-analysis of the deposited data

How the results depend on the processing

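No paired analysis was possible because each tissue has 1 library. Of the log2 ratios of fetal liver over bone marrow, 9 of 10 members kept their sign under all 13 alternatives, and Hsph1 turned to -0.21 in low cycling cells. The number of members 2-fold higher, 1 over all cells, was 2 with a median-ratio factor, 2 with TMM, 0 in low cycling cells only, 0 in high cycling cells only and 4 at 1.5-fold (19.2% of all genes). The number 2-fold lower, 2 over all cells, was 3 at 1.5-fold, with Dnajb1 added (23.2% of all genes), 1 without the 1% of cells with the highest member share, 0 with a minimum of 50 CPM and, by an alternative added after the data were seen, 0 without the 1% of cells with the most Hspa1a and Hspa1b UMIs. The minimum of 50 CPM leaves both genes out. Without those cells Hspa1a, still at -1.22, fell under the 10 CPM minimum, and Hspa1b was at -0.79. The inducible minus constitutive difference, -0.24, was -0.28 with every cell weighing the same and -0.28 without the 5% of cells with the most UMIs. It was -0.20 without the 1% with the highest member share and -0.17 without the cells richest in Hspa1a and Hspa1b. In low and high cycling cells it was -0.55 and -0.36. Without the fetal liver clusters led by other lineages it was -0.39. For high over low cycling in fetal liver, the number 2-fold higher, 2, was 5 with states from unthinned shares, 5 with a median-ratio factor, 5 at 1.5-fold (13.1% of all genes), 1 without the 5% of cells with the most UMIs and 0 within clusters. The number lower, 0, stayed 0 within clusters because Hspa1a (-1.37) and Hspa1b (-1.70) were under 10 CPM there, and was 1 with stricter state limits, 1 with unthinned shares, 1 with every cell weighing the same, 1 at 1.5-fold (16.9%) and 2 in S leaning cells. In bone marrow the number higher, 2, was 1 in G2 and M leaning cells, 1 with every cell weighing the same, 4 at 1.5-fold (18% of all genes), 0 within clusters and 0 without the 5% of cells with the most UMIs. The causes were not tested. Depth limits Hspa1a and Hspa1b most, with 64 and 65 UMIs in low cycling fetal liver cells.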
